A study of Oryza sativa with 8 samples.

Results

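Ethylene perception in rice (*Oryza sativa*) runs from a small receptor family to a pair of nuclear transcription factors. The 9 genes described here are the 5 receptors OsERS1, OsERS2, OsETR2, OsETR3 and OsETR4, the kinase OsCTR2, the membrane protein OsEIN2 and the transcription factors OsEIL1 and OsEIL2. They were chosen by their identifiers in release 7 of the Michigan State University (MSU) rice annotation, not by their values. Earlier results of these data were known when the choice was made. The members are 9 of the 55986 genes listed in the count tables. Their levels were measured in roots of Xkitaake rice, which is Kitaake transformed with XA21 under the maize ubiquitin promoter, labelled WT in both groups. The 4 intact root libraries came from seedlings lifted from gel medium and frozen without treatment. The 4 digested root libraries came from roots of the same line and growth medium taken through the enzyme cocktail used to release protoplasts, and hold the protoplasts together with root pieces left undigested. The comparison serves to find genes whose transcript level moves during protoplasting, since such genes were kept out of the study's single-cell data. The labels give no digestion time, and do not state whether replicates came from separate plants, so the p-values measure only the spread between these samples.

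Ethylene is a gaseous hormone that restrains rice root elongation and is known for its role in the response of roots to flooding and to compacted soil. Its receptors sit in the membrane of the endoplasmic reticulum and work as negative regulators. With no ethylene bound, they keep a CTR-type kinase active, and that kinase phosphorylates EIN2 and holds it silent. When ethylene binds, the kinase activity falls, the C-terminal end of EIN2 is released, and transcription factors of the EIN3 and EIL family accumulate in the nucleus. Subfamily I receptors (in rice OsERS1 and OsERS2) keep the conserved histidine kinase motifs, whereas subfamily II receptors (OsETR2, OsETR3 and OsETR4) have diverged from them.

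The libraries were made from 3′ tags with unique molecular identifiers, so a transcript gives about 1 read whatever its length, and levels of different genes are set side by side as CPM (counts scaled to a common library size) without division by length. Counts on genes ranged from 2333236 to 3595349 in intact and from 115006 to 471019 in digested libraries, and the medians differed 12.5-fold. A single count was therefore worth 0.249 to 0.407 CPM in intact libraries and 2.46 to 9.29 CPM in digested ones. All 9 members together received 492 to 878 counts per intact library and 25 to 105 per digested library. Of 58 root cell type markers, none was at 0 in the summed intact libraries and 6 were at 0 in the summed digested ones. Summed counts on genes were 11068268 in intact and 998842 in digested roots, and the part of depth in these zeros was not tested. Of the 47 markers tested, 28 were lower and 1 was higher in digested roots, against 18.5% lower and 20.0% higher over all genes tested. The summed marker level was lower in every digested library than in any intact library for 7 of 12 cell types (epidermis, trichoblast, sclerenchyma, cortex, vascular tissue, xylem and root cap) and higher for 0. The part of this shift in the members' changes was not tested, and in bulk roots fewer cells of a type and less RNA per cell cannot be told apart.

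Transcripts of 3 of the 5 receptors were lower after digestion, and the transcript of OsEIL2, at the far end of the pathway, was higher. Of the 9 members, 6 had counts and passed the filter on low counts. The other 3 (OsETR4, OsEIN2 and OsEIL1) had no count in any of the 8 libraries. OsETR2 and OsETR3 passed the filter only through the intact libraries, where they were high. Both are included in the counts of members called and of groups without overlap. In the quasi-likelihood fit of edgeR, with Benjamini-Hochberg adjusted p over the 13104 genes tested, OsERS1, OsETR2 and OsETR3 fell and OsEIL2 rose, while OsERS2 and OsCTR2 did not pass the threshold of 0.05. Among all genes tested, 38.5% were called, 20.0% higher and 18.5% lower, so 4 calls among 6 tested members stand beside a large response of the whole transcriptome. The groups did not overlap for 3 of the 6 members (OsETR2, OsETR3 and OsEIL2), against 37.2% of all genes tested. The median log2 fold change of the 6 tested members was -0.57, with a range from -2.00 to 2.20, against a median of -0.06 over all genes tested.

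**Figure D1:**
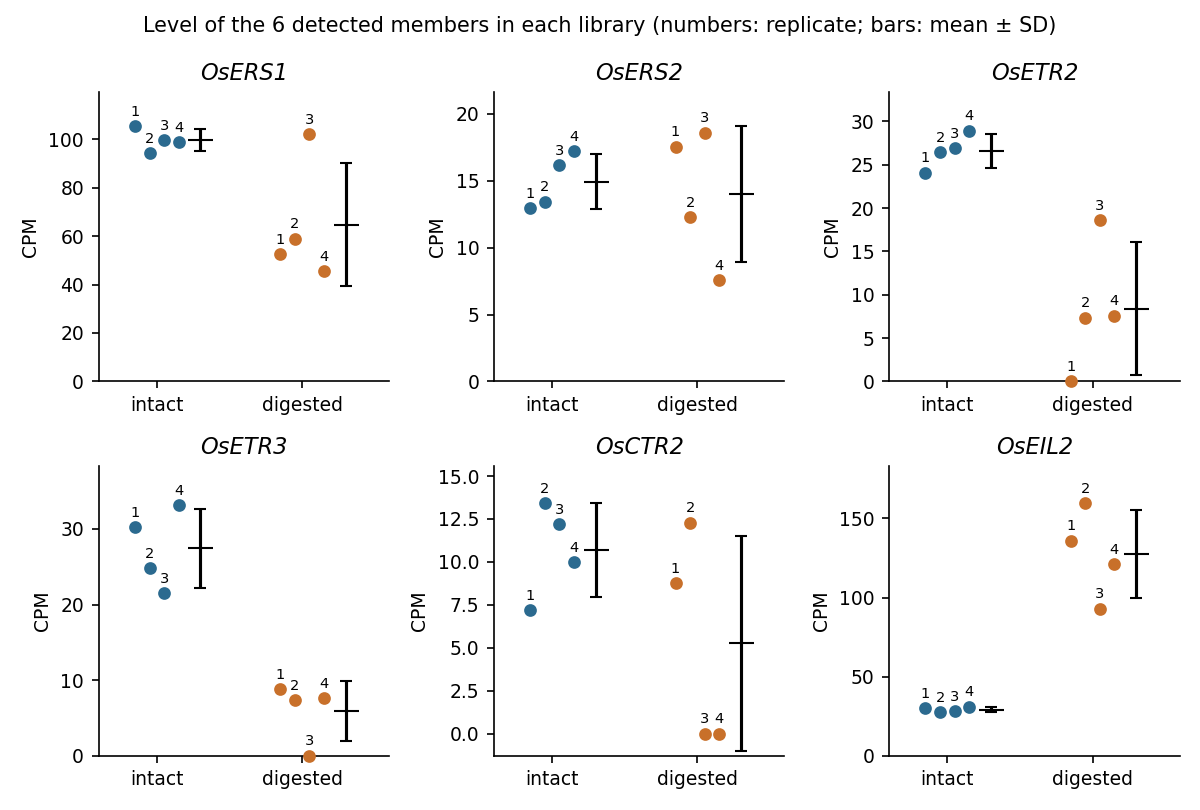
Level of each detected member in each library, in CPM on a linear axis that differs between panels; blue points are intact and orange points digested roots, the small numbers are replicates, and black bars give the mean ± SD of 4 libraries. OsETR2, OsETR3 and OsEIL2 have no overlap between groups, digested replicate 3 carries OsERS1 at 102 CPM within the intact range, and 1 digested library of OsETR2, 1 of OsETR3 and 2 of OsCTR2 lie at 0.

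OsERS1 (LOC_Os03g49500, chromosome 3) was the most abundant receptor transcript. It gave 293, 232, 278 and 396 counts in intact replicates 1 to 4, which is 105, 94.4, 99.7 and 98.7 CPM. In digested replicates 1 to 4 it gave 12, 24, 11 and 6 counts, which is 52.6, 59.0, 102 and 45.4 CPM. Digested replicate 3 lay inside the intact range and the other 3 digested libraries lay below it. The mean fell from 99.5 ± 4.53 to 64.8 ± 25.5 CPM (SD, n = 4 each). The fall fitted by edgeR was 1.62-fold (log2 fold change -0.70, SE 0.25, edgeR adjusted p = 0.0268, 95% interval -1.20 to -0.19). Without digested replicate 3 the log2 fold change was -0.96 (edgeR adjusted p = 0.00336). Without digested replicate 1, 2 or 4 it was -0.71, -0.83 and -0.70, with edgeR adjusted p of 0.0464, 0.0379 and 0.0433. Another test, limma-voom, gave -0.68 with an adjusted p of 0.0478. The adjusted p with limma-voom and without digested replicate 1, 2 or 4 lay just under the threshold of 0.05, so the call of OsERS1 was narrow. It was kept in 17 of 18 alternatives and lost in 1, which is described at the end.

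OsERS2 (LOC_Os05g06320, chromosome 5), the other subfamily I receptor, was held at 12.9, 13.4, 16.1 and 17.2 CPM in intact replicates 1 to 4. The digested libraries gave 17.5, 12.3, 18.6 and 7.57 CPM from 4, 5, 2 and 1 counts. Both groups covered the same range, with means of 14.9 ± 2.07 and 14.0 ± 5.09 CPM (SD, n = 4 each). The log2 fold change of -0.13 (SE 0.44) did not pass the test, with an edgeR adjusted p of 0.857. Its 95% interval of -1.03 to 0.78 leaves room for a change of either sign of the size seen in OsERS1.

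The subfamily II receptors showed the largest falls among the members. OsETR2 (LOC_Os04g08740, chromosome 4) gave 24.1, 26.4, 26.9 and 28.9 CPM in intact replicates 1 to 4, from 67, 65, 75 and 116 counts. In digested replicates 1 to 4 it gave 0, 7.37, 18.6 and 7.57 CPM, from 0, 3, 2 and 1 counts. Every digested library lay below every intact one. The mean fell from 26.6 ± 1.98 to 8.38 ± 7.66 CPM (SD, n = 4 each), with a fitted fall of 3.83-fold (log2 fold change -1.94, SE 0.52, edgeR adjusted p = 0.00349).

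OsETR3 (LOC_Os02g57530, chromosome 2) behaved alike in size. Intact replicates 1 to 4 held 30.2, 24.8, 21.5 and 33.2 CPM, from 84, 61, 60 and 133 counts. Digested replicates 1 to 4 held 8.77, 7.37, 0 and 7.57 CPM, from 2, 3, 0 and 1 counts, again all below the intact libraries. The mean fell from 27.4 ± 5.24 to 5.93 ± 4.00 CPM (SD, n = 4 each), with a fitted fall of 4.00-fold (log2 fold change -2.00, SE 0.50, edgeR adjusted p = 0.00215). Each of these 2 genes rests on 6 counts in the digested group. Each passed the filter on low counts only through the intact group, where it was high. The ratio of summed counts, scaled by library size, had an exact 95% interval from counting error alone of -3.42 to -0.83 on the log2 scale for OsETR2 and -3.49 to -0.90 for OsETR3. When intact libraries were thinned to the totals of the digested ones, neither gene passed the filter on low counts, so the falls of OsETR2 and OsETR3 could be tested only with the depth of the full intact libraries.

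The third subfamily II receptor, OsETR4 (LOC_Os07g15540, chromosome 7), had 0 counts in all 8 libraries. A count of 0 allows up to 3 counts over the group, or 0.249 CPM for the intact and 3.43 CPM for the digested group. The intact limit lies far under the level of the rarest receptor detected, OsERS2 at 14.9 CPM. The digested limit is close to the level of OsETR3, at 5.93 CPM, so a low level of OsETR4 was not detectable at this depth.

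Shares within the receptor family do not depend on how libraries are scaled. OsERS1 made up 61.0%, 59.3%, 60.7% and 55.5% of receptor counts in intact replicates 1 to 4, and 66.7%, 68.6%, 73.3% and 66.7% in digested replicates 1 to 4. Adding OsERS2, subfamily I held 68.0% ± 2.23 of receptor counts in intact and 84.0% ± 4.87 in digested roots (SD, n = 4 each). The intact libraries ranged from 65.1% to 70.5% and the digested ones from 77.8% to 88.9%, with no overlap. Depth limits this view, since the digested libraries held only 18, 35, 15 and 9 receptor counts. The exact binomial (Clopper-Pearson) 95% interval was 40.0% to 97.2% in digested replicate 4 and 61.5% to 68.6% in intact replicate 4. Summed over libraries, subfamily I held 1382 of 2043 counts in intact roots (67.6%, interval 65.6% to 69.7%) and 65 of 77 in digested roots (84.4%, interval 74.4% to 91.7%). These intervals cover counting error only, and no test between the groups was run on the share.

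**Figure D2:**
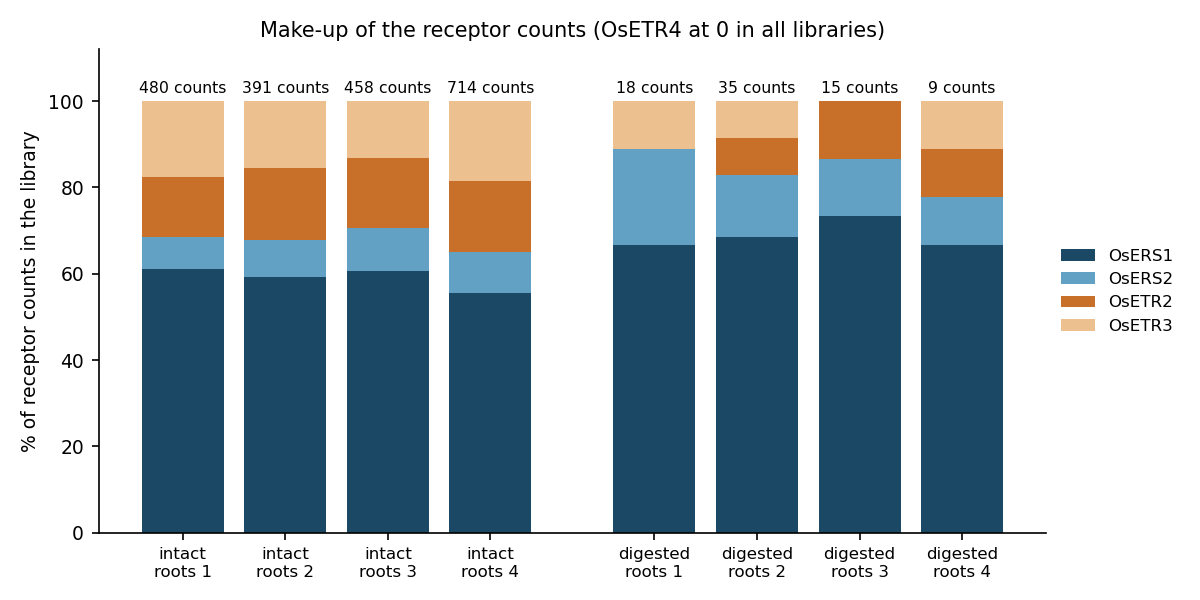
Percent of the receptor counts of each library that fell on each receptor, stacked to 100%, with the number of receptor counts above each bar; blue shades are subfamily I and orange shades subfamily II. OsERS1 is the largest part of every bar, and subfamily I makes up 65.1% to 70.5% of the intact and 77.8% to 88.9% of the digested bars, the latter from 9 to 35 counts.

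OsCTR2 (LOC_Os02g32610, chromosome 2), the kinase that the receptors hold active, was the rarest member with counts in intact roots. Intact replicates 1 to 4 gave 7.19, 13.4, 12.2 and 9.97 CPM, from 20, 33, 34 and 40 counts. Digested replicates 1 and 2 gave 8.77 and 12.3 CPM, from 2 and 5 counts, and digested replicates 3 and 4 gave 0. Means were 10.7 ± 2.74 and 5.26 ± 6.25 CPM (SD, n = 4 each), and the groups overlapped. The log2 fold change of -0.44 (SE 0.60, 95% interval -1.67 to 0.80) did not pass the edgeR test, with an adjusted p of 0.609. Digested replicate 2 carried 5 of the 7 digested counts, and without it the log2 fold change was -1.48 (edgeR adjusted p = 0.246). A fall of OsCTR2 as large as that of OsETR2 lay outside its interval, while no change and a fall of the size of OsERS1 both lay inside.

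OsEIN2 (LOC_Os07g06130, chromosome 7), the single step between kinase and nucleus whose loss in rice roots gives ethylene insensitivity, had 0 counts in all 8 libraries, and so did OsEIL1 (LOC_Os03g20780, chromosome 3). The limits are the same as for OsETR4, with 3 counts over a group. A gene at 0 was not rare in these tables, since 30730 of 55986 listed genes (54.9%) had no count in any library. A 3′ tag that lands past the annotated end of a gene model is counted on no gene, and a tag that aligns at more than 1 place is dropped. Reads outside gene models were 13.0% to 13.9% of intact and 13.4% to 14.9% of digested reads. Reads at several places were 3.93% to 5.36% and 13.0% to 24.3%. Whether the transcripts of OsEIN2, OsEIL1 and OsETR4 were lost in this way was not tested, and no change between intact and digested roots can be given for them.

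For OsEIL1 the name itself covers more than 1 gene. The RefSeq gene table lists OsEIL1 for 2 adjacent genes of chromosome 3, with 0 genes between them, and does not carry the MSU identifiers. The locus with the next MSU number, LOC_Os03g20790, which was looked up after the 0 of OsEIL1 was seen, held 6, 16, 22 and 10 counts in intact replicates 1 to 4 and 1, 2, 1 and 0 in the digested ones. Its mean level was 4.76 ± 2.87 CPM intact and 4.65 ± 3.80 CPM digested (SD, n = 4 each). It did not pass the filter on low counts. Whether it is the second OsEIL1 gene was not settled.

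OsEIL2 (LOC_Os07g48630, chromosome 7), known in rice mainly for the ethylene response of the coleoptile, was the only member that rose. Intact replicates 1 to 4 held 29.9, 27.7, 28.0 and 30.9 CPM, from 83, 68, 78 and 124 counts. Digested replicates 1 to 4 held 136, 160, 92.9 and 121 CPM, from 31, 65, 10 and 16 counts. Every digested library lay above every intact one. The mean rose from 29.1 ± 1.55 to 127 ± 28.0 CPM (SD, n = 4 each), with a fitted rise of 4.58-fold (log2 fold change 2.20, SE 0.22, 95% interval 1.74 to 2.66, edgeR adjusted p = 4.06e-09). Among the 13104 genes tested, 1081 had a log2 fold change at least as high, OsEIL2 included.

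OsEIL2 also took a larger share of the members' counts. It supplied 14.2%, 13.8%, 13.7% and 14.1% of all members' counts in intact replicates 1 to 4. The share was 60.8%, 61.9%, 40.0% and 64.0% in digested replicates 1 to 4. The intact libraries agreed closely, and the lowest digested value, in replicate 3, came from 10 of 25 counts, with an exact binomial 95% interval of 21.1% to 61.3%. The OsEIL1 share of OsEIL1 and OsEIL2 counts was 0 in every library. In the summed libraries the exact binomial 95% interval reached 1.04% of 353 counts in intact and 2.98% of 122 counts in digested roots. These limits hold only if OsEIL1 tags are counted on its gene model, which was not tested.

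The order of levels changed accordingly. In intact roots OsERS1 (mean 99.5 CPM) stood alone at the top, and OsEIL2, OsETR3 and OsETR2 followed at 29.1, 27.4 and 26.6 CPM with overlapping ranges. OsERS2 and OsCTR2 came next at 14.9 and 10.7 CPM, and these ranges also overlapped. In digested roots OsEIL2 (127 CPM) came first and OsERS1 (64.8 CPM) next, with ranges that overlapped between 92.9 and 102 CPM. Both values came from digested replicate 3, where OsERS1 lay above OsEIL2. OsERS2, OsETR2, OsETR3 and OsCTR2 followed at 14.0, 8.38, 5.93 and 5.26 CPM, and no neighbours among these 4 were separated beyond their ranges.

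**Figure D3:**
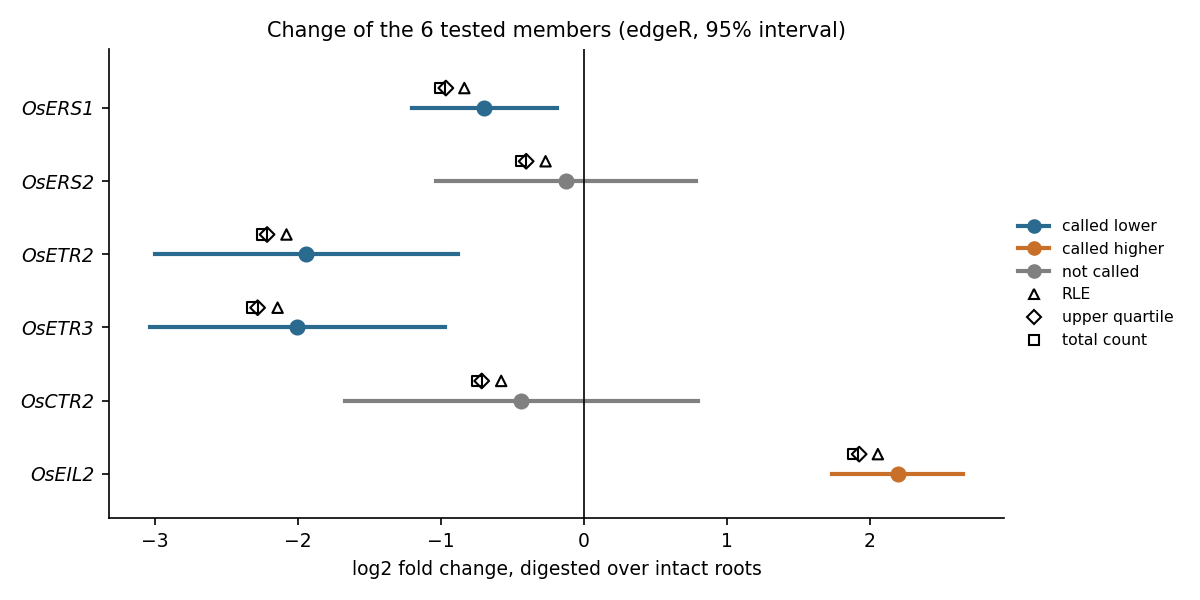
Log2 fold change of each tested member, digested over intact roots, with the edgeR 95% interval (line) and the same value under 3 other scalings of the libraries (open symbols). OsEIL2 lies at 2.20 and OsETR2 and OsETR3 at -1.94 and -2.00, the intervals of OsERS2 and OsCTR2 cross 0, and every open symbol lies to the left of its filled point.

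The scaling of libraries sets where 0 lies on the log2 scale. Against TMM scaling, which is used throughout, the median of all genes moved by -0.14 with RLE, by -0.27 with upper-quartile and by -0.31 with total-count scaling. Calls over all genes were then 2618 higher and 2430 lower with TMM, 2096 and 3507 with upper-quartile, and 2048 and 3722 with total-count scaling. The 4 called members kept their direction and call under all 3 scalings. OsEIL2 ranged from 1.88 to 2.06 under them, OsERS1 from -1.005 to -0.83, OsETR2 from -2.25 to -2.08 and OsETR3 from -2.32 to -2.14.

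The helpers and regulators next to the members were lower or not called. The rice RTH proteins are related to *Arabidopsis* RTE1, which promotes the activity of the receptor ETR1. OsRTH2 fell from 158 ± 12.5 to 66.2 ± 15.9 CPM (SD, n = 4 each; log2 fold change -1.22, SE 0.23, edgeR adjusted p = 8.13e-05). OsRTH1, at 32.1 and 19.8 CPM, and OsRTH3, at 22.2 and 13.0 CPM in intact and digested roots, did not pass the edgeR test with TMM scaling (log2 fold changes -0.80 and -1.07, adjusted p = 0.0840 and 0.0663), but both passed as lower under each of the other 3 scalings.

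OsEBF1 and OsEBF2 encode F-box proteins of the kind that target EIN3 and EIL factors for degradation. OsEBF1 gave 77.3, 102, 99.4 and 71.1 CPM in intact and 35.1, 17.2, 9.29 and 15.1 CPM in digested replicates 1 to 4, so all digested libraries lay below the intact ones. It fell by 2.08 on the log2 scale (SE 0.34, edgeR adjusted p = 1.12e-05). OsEBF2, at 199 ± 24.3 and 147 ± 24.4 CPM (SD, n = 4 each), did not pass with TMM scaling (log2 fold change -0.42, edgeR adjusted p = 0.0959) and passed as lower under the other 3 scalings.

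The other genes of these steps were not called or not tested. Among the other EIL genes, OsEIL3 passed the filter and stood at 24.5 and 27.5 CPM in intact and digested roots with a log2 fold change of 0.23 (edgeR adjusted p = 0.705), which turned to -0.05 and -0.09 with upper-quartile and total-count scaling. OsEIL4 gave 22 counts in the intact and 1 in the digested libraries, and OsEIL5 and OsEIL6 gave 0 in both. The kinases OsCTR1 and OsCTR3 gave 1 and 137 counts in intact and 1 and 3 in digested roots. The EIN2-like gene OsEIN2.2 gave 67 and 1, while OsEIN2.3 and OsEIN2.4 gave 0 in all libraries, as OsEIN2 did. Apart from OsEIL3, none of these genes passed the filter, so none was tested.

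Of the 36 other signalling genes on the study's list of ethylene genes, 23 were tested, 11 were higher and 4 lower in digested roots, with a median log2 fold change of 0.48. Over all genes tested, 20.0% were higher and 18.5% lower, with a median of -0.06. With RLE, upper-quartile and total-count scaling 8, 9 and 9 were lower, and without digested replicate 1 there were 7. Most of the higher genes encode AP2/ERF transcription factors, the family that EIN3 and EIL factors act on in *Arabidopsis*. OsBIERF1 rose from 16.4 ± 1.30 to 575 ± 148 CPM (SD, n = 4 each; log2 fold change 5.14) while OsBIERF3 held 8.13 to 17.6 CPM in the intact and 335 to 391 CPM in the digested libraries (log2 fold change 5.11). OsAP2-39, OsERF1, OsERF3, OsERF34, OsERF922 and OsBIERF4 were also higher, with log2 fold changes of 4.10, 3.58, 2.68, 2.41, 1.99 and 0.79. The edgeR adjusted p of these 8 genes ran from 4.03e-17 for OsBIERF1 to 0.00185 for OsBIERF4. OsBIERF4 no longer passed without digested replicate 2 (edgeR adjusted p = 0.0998). OsERF34, at 3.24 to 6.82 CPM in the intact libraries, passed the filter on low counts only through the digested ones.

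The other 3 higher signalling genes were OsbZIP23, a basic leucine zipper factor of the abscisic acid response (log2 fold change 2.10), the response regulator OsRR21 (1.02) and MHZ4, which acts in abscisic acid synthesis (0.94), with edgeR adjusted p of 2.17e-09, 0.00147 and 0.0101. MHZ4 did not pass with upper-quartile or total-count scaling (edgeR adjusted p = 0.0589 and 0.0762), nor without digested replicate 1 or 2 (0.0569 and 0.243). Besides OsRTH2 and OsEBF1, the lower genes were OsAP25 (log2 fold change -2.51) and MHZ11, a GDSL lipase that acts on ethylene signalling in rice roots (-1.75), with edgeR adjusted p of 2.58e-09 and 5.03e-05. MHZ11 stood at 163 to 205 CPM in intact roots and at 30.7, 41.8, 149 and 37.9 CPM in digested replicates 1 to 4, and without digested replicate 3 its log2 fold change was -2.37 (edgeR adjusted p = 1.44e-08). Digested replicate 3, which held OsERS1 at the intact level, was thus also the highest digested library for MHZ11 and for OsETR2, the latter from 2 counts. Other genes went the other way there, with OsETR3 and OsCTR2 at 0 and OsEBF1 at its lowest digested level of 9.29 CPM.

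Ethylene is made from S-adenosylmethionine by ACC synthase (ACS) and ACC oxidase (ACO). Of 20 listed synthesis genes, 14 were tested, 5 were higher and 3 lower, with a median log2 fold change of 0.49, beside the same 20.0% higher and 18.5% lower over all genes tested. The list is wider than these enzymes. Of 3 ACS genes tested 1 was higher and 1 lower, and of 6 ACO genes 3 were higher and 1 lower. The other called genes, OsEREBP1 (log2 fold change 1.02) and OsARD2 (-1.09), are neither ACS nor ACO. The largest changes among the tested synthesis genes were both in ACC oxidases and had opposite signs. Each passed the filter on low counts only through the group where it was high. For OsACO1 this was the digested group, at 17.2 to 45.4 CPM against at most 1.08 CPM intact, and for OsACO7 the intact group. OsACO1 went from 0.55 ± 0.47 to 29.1 ± 13.6 CPM (SD, n = 4 each; log2 fold change 5.37, SE 0.61, edgeR adjusted p = 3.48e-08), from 7 counts in the intact and 23 in the digested group. With a prior count of 2 its log2 fold change was 3.96. OsACO7 went from 72.3 ± 7.97 to 4.17 ± 4.87 CPM (log2 fold change -3.97, SE 0.48, edgeR adjusted p = 1.06e-07). Digested replicate 2 held 3 of the 4 digested counts of OsACO7, and without it the log2 fold change was -5.19.

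**Figure D4:**
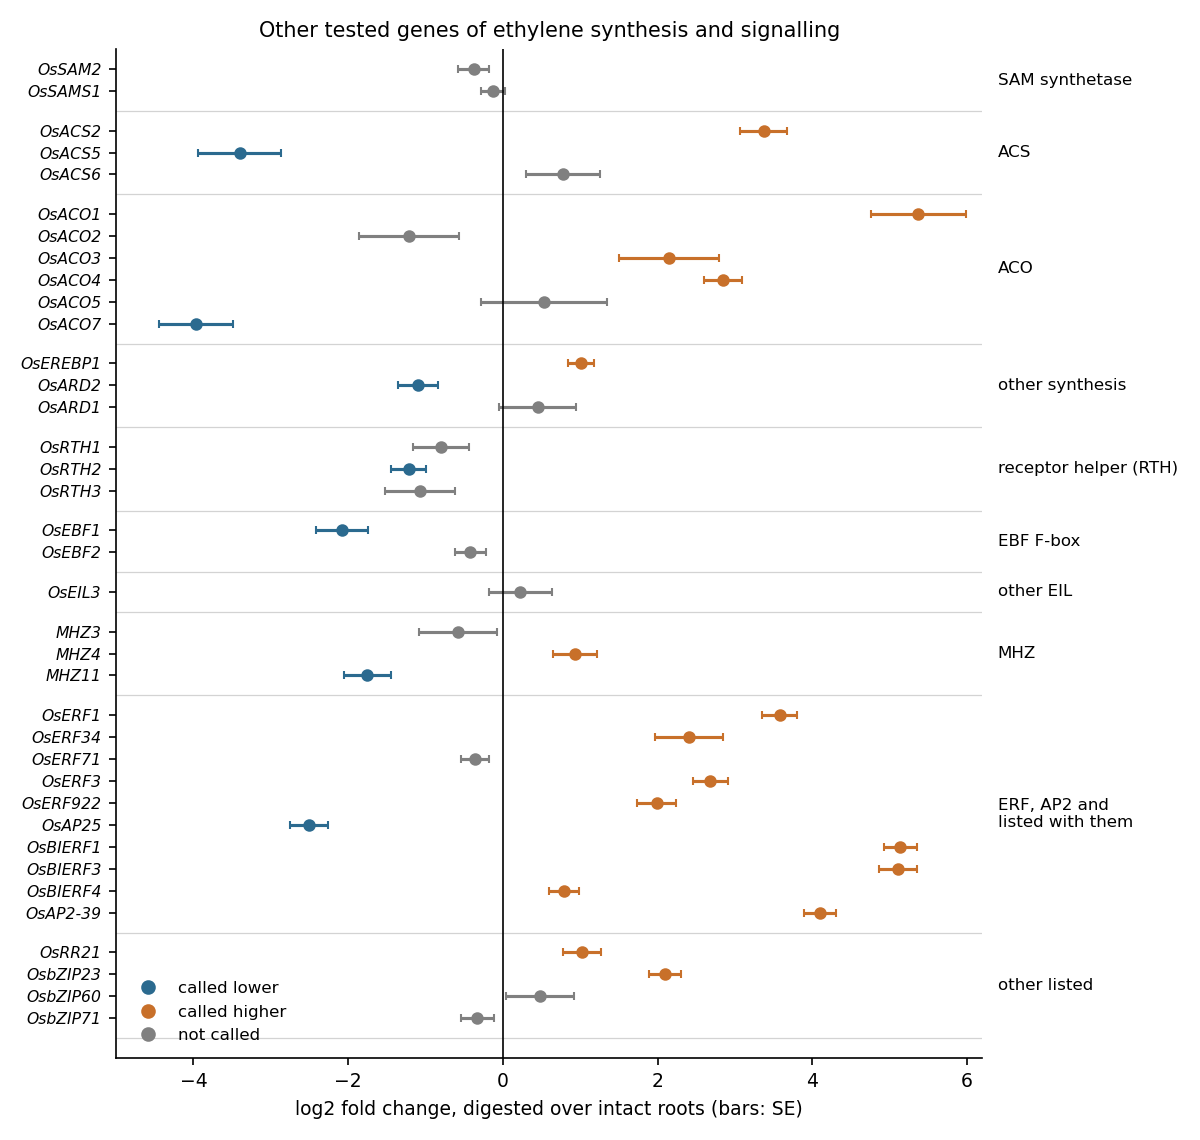
Log2 fold change, digested over intact roots, of the other tested genes of ethylene synthesis and signalling, grouped by step, with bars for the SE. The receptor helpers and EBF genes all lie left of 0, with OsRTH2 at -1.22 and OsEBF1 at -2.08 called, and 8 genes with ERF or AP2 names are called higher, up to 5.14 for OsBIERF1.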

How the data were processed

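RNA of 4 intact and 4 digested root samples was made into 3′ tag libraries (QuantSeq 3′ FWD) with unique molecular identifiers. The deposited values are raw whole-number counts per gene that the authors obtained with HTSeq on MSU rice release 7, 1 file per library, without normalization; the submitters' processing notes also name STAR, UMI-tools and edgeR, without versions or roles. Reads outside a gene model or at several places are not counted, so genes with near copies or short annotated ends are uncertain. The 5 HTSeq summary rows, which name no gene, were left out of library sizes and tests.

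The test used edgeR 4.0.16 under R 4.3.3 (low counts filtered by filterByExpr at a minimum of 10, TMM, robust quasi-likelihood fit and F test, prior count 0.125, Benjamini-Hochberg adjustment) on condition alone, digested over intact. The SE was derived from the log2 fold change and the F statistic, and intervals are at 95%. CPM rest on tested genes and TMM factors. limma 3.58.1 and DESeq2 1.42.0 served as alternatives. In simulated data for this comparison, among 12607 genes, the fit recovered 31 of 93 tested genes changed by 1 on the log2 scale (33.3%). Of those changed by 2 it recovered 72 of 91 (79.1%). Changed genes that were not tested are outside both shares.

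The members and gene lists were chosen with earlier results of these data known. All members were described, and of other listed genes the signalling genes that passed the test, those of neighbouring steps and the 2 synthesis genes with the largest called change. ERF genes that were not called or not tested are also named. Names come from the study's gene table. RefSeq symbols (a different assembly, no coordinates used) matched 7 of 9 members.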

Additional observations from a re-analysis of the deposited data

Results flagged for a closer look

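One value stood apart from the other libraries of its group. OsETR3 in digested replicate 3 was at 0 CPM, while the other 3 digested libraries held 7.37 to 8.77 CPM, and the gap made up 0.841 of the group's range, past Dixon's 95% critical value for 4 samples. A single count in that library was worth 9.29 CPM, so the gap is about that of 1 count. Of the 14 groups of values examined, chance would be expected to single out 0.7.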

How the results depend on the processing

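Under 18 alternatives, 94 of 96 values of the 6 tested members kept their direction and their side of the threshold. A prior count of 2 alters only the size of a fold change, so its values could not cross the threshold. The exceptions among the 96 values were OsERS2, not called in any setting, at 0.086 with limma-voom, and OsERS1 with the replicate block. The labels do not state whether the replicate numbers pair the samples. Deviations of same-numbered libraries correlated at -0.30, 0.06, -0.11 and -0.06, and those of differently numbered libraries at -0.10 to 0.23. At the digested depth, counting error lowers such correlations, so they cannot decide whether the samples were paired. In the fit with the replicate block OsERS1 was at -0.68 (edgeR adjusted p = 0.0831), so 2 members were lower and 1 higher, and 4180 genes were called. Over its alternatives the adjusted p of OsERS1 ran from 0.00114 to 0.0831, that of OsETR2 from 0.000630 to 0.0176, that of OsETR3 from 0.000367 to 0.0109 and that of OsEIL2 from 1.30e-21 to 1.64e-05.

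Leaving out an intact library left OsERS2 and OsCTR2 untested, and thinning the intact libraries left 2 members tested (OsERS1 and OsEIL2), because fewer genes passed the filter. With thinning, 2229 genes were called in place of 5048, 1 member was lower in place of 3, 3 synthesis genes were higher in place of 5, and subfamily I held 64.7% of intact receptor counts. Of the other signalling genes, 8, 9 and 9 were lower with RLE, total-count and upper-quartile scaling in place of 4, and 4 to 7 when 1 library was left out. With total-count scaling 5 synthesis genes were lower in place of 3. OsEIL3, not called in any setting, was at -0.085, -0.050 and -0.12 with total-count scaling, upper-quartile scaling and limma-voom, and between -0.27 and 0.41 when 1 library was left out, the lowest without digested replicate 1. Among 363 values of 21 of the other named genes, 337 kept direction and call, 16 gained and 6 lost the call, and 4 changed sign. These values include those with a prior count of 2, which could not gain or lose a call.

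At the digested depth, OsETR2, OsETR3 and OsCTR2 rest on 6, 6 and 7 counts, and the size of their changes is known only within wide intervals.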
